A study of Mus musculus with 12 samples.

Results

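The Myc network factors examined here were Myc, its paralogues Mycn and Mycl, their dimerisation partner Max, and 4 further genes whose proteins pair with MAX, namely Mxi1, Mxd4, Mnt and Mga. The 8 genes were listed by name, with earlier results of these data known. Counts for 7 of them were among the 18278 genes measured, and all 7 passed the filter on low counts. Mycn was not analysed here.

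Gene counts came from RNA-seq of 12 tumoursphere cultures of mouse mammary cancer cells, 3 for each of 4 groups. Tumourspheres are clusters that dissociated cells form when they cannot attach to the plate. LM1 and LM9, called parental here, were grown from dissociated lungs of immunodeficient mice with lung metastases, and tumour cells were sorted for GFP. The mice bore tumours of a mammary tumour line that had undergone piggyBac transposon mutagenesis. That line carries an oncogenic PIK3CA mutant transgene under the CAG promoter. LM1KO and LM9KO carry the label Nfib KO and were made from LM1 and LM9 with CRISPR-Cas9 guides designed against the first exons of Nfib. Each KO group was a pool of single-cell clones and not 1 clone. All cultures were kept for 6 days at 10000 cells per mL, with EGF and basic FGF at 20 ng per mL each and B27, and no group received a drug. No label says whether the 3 libraries of a group came from separate cultures, so the p-values measure the spread between these libraries, which may be technical.

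MYC and MYCL are basic helix-loop-helix leucine zipper proteins that bind DNA as dimers with MAX, mainly at the E-box CACGTG, and are known for activating genes of ribosome biogenesis, nucleotide synthesis and cell growth. MAX also pairs with MXI1 (an MXD family member, also called MXD2), MXD4, MNT and MGA, and these dimers bind the same motif without activating it. The MXD proteins and MNT recruit the SIN3 histone deacetylase complex, and MGA works with MAX in a variant Polycomb complex, PRC1.6. A parallel arm of the network pairs MLX with the nutrient-sensing factors MLXIP (MondoA) and MLXIPL (ChREBP), and MLX can also dimerise with MXD1, MXD4 and MNT.

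The E-box was searched in promoter windows of the members, from 250 bases before to 50 bases after each RefSeq start on GRCm38.p6, because it is the motif that the members' own proteins bind. CACGTG reads the same on both strands, so 1 search covers both. Of 6 members with a window, the 3 genes Max, Mxd4 and Mnt held 1 motif each, and Mycl, Mxi1 and Mga held none in these windows. Myc had no window entry. By gene, the motif was in 8.09% of all 27025 RefSeq genes with a window and in 11.6% of those with counts, and by window in 3 of the members' 8 (37.5%) beside 7.15% of all 32851. In the MLX arm, Mlx and Mlxipl held 1 each among the 5 genes Mxd1, Mxd3, Mlx, Mlxip and Mlxipl. The stretches below are written 5′ to 3′ on the strand of the gene, with the motif in capitals and 12 bases on each side.
Max: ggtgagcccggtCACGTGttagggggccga
Mxd4: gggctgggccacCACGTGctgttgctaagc
Mnt: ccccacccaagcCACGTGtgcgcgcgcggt
Mlx: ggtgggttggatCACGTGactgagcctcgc
Mlxipl: gcggctgccatcCACGTGctaaggagagaa
The Max stretch lies at chr12:76962234-76962263 on the minus strand, and its motif begins 3 bases before the RefSeq start of the window, which lies upstream of the GENCODE gene start given below. The Mxd4 stretch lies at chr5:34187912-34187941 on the minus strand, with the motif 219 bases before the RefSeq start. The Mnt stretch lies at chr11:74830789-74830818 on the plus strand, with the motif 123 bases before the start. The Mlx stretch at chr11:101087238-101087267 (plus strand) has its motif 40 bases before the start, and the Mlxipl stretch at chr5:135089780-135089809 (plus strand) has it 98 bases before. These matches describe letters in the windows and do not show binding.

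Several facts of the whole series bear on every value below. Library totals ran from 29249075 to 37162594 counts, and levels below are CPM (counts scaled to a common library size) with TMM factors, which adjust for a few abundant genes, unless another unit is named. On this scale 3 counts correspond to 0.0730 to 0.121 CPM. Nfib, the targeted gene, was at 196, 217 and 241 CPM in LM1, 238.5, 238 and 228 CPM in LM1KO, 210.3, 120 and 133 CPM in LM9 and 227, 247 and 246 CPM in LM9KO. Its mRNA was thus no lower under the knockout label, and its log2 fold change was 0.11 (SE 0.16) in LM1, which did not pass, and 0.68 (SE 0.17) in LM9, which passed. Counts over a whole gene do not show an edit of a few bases, so every direction below rests on the labels. LM9 replicate 1 stood apart from its group. Across genes its log2 CPM correlated with the LM1 libraries at r = 0.998 and with LM9 replicates 2 and 3 at 0.972 to 0.974. It lay nearer to LM1 for all 7 members and the 5 other network genes. For Mxi1, Mxd1 and Mxd3, however, the ranges of LM1 and of LM9 replicates 2 and 3 overlapped, so these genes cannot tell them apart. Because LM9 replicate 1 stood apart, the members' results in LM9 are given with and without that library, as are some of other genes. Libraries labelled knockout correlated with each other at 0.998 to 0.999 and with parental libraries at 0.781 to 0.797.

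The sample source was given as a breast cancer cell line, and markers of cell types differed between the labels. The summed level of 6 epithelial markers was 737 to 1328 CPM over the parental libraries and 7.10 to 7.86 CPM in the libraries labelled knockout. There Krt18 and Cdh1 had 0 to 4 counts, whereas Epcam kept 18 to 26 counts and Krt14 was higher than in parental libraries. The 3 endothelial markers summed to 0.202 to 1.33 CPM in parental libraries, where Cdh5 and Kdr had 0 to 2 counts, and to 350.5 to 359 CPM in the libraries labelled knockout. That difference lay in Cdh5 and Kdr, whereas Pecam1 was at 0.169 to 1.33 CPM in parental libraries and 0.243 to 0.555 CPM in the others. The 5 mesenchymal markers summed to 3155 to 5701 CPM against 6444 to 6700 CPM, with Vim the most abundant in every group. Vim overlapped between the labels, at 2940 to 5542 CPM against 5158 to 5330 CPM. The others were higher under the knockout label. Col1a1 was at 1.77 to 6.31 CPM against 868 to 979 CPM, and Pdgfrb at 0.0403 to 1.74 against 110 to 117 CPM. Pdgfra was at 156 to 208 against 273 to 291 CPM, and Col1a2 at 0 counts against 0.56 to 0.915 CPM. Cd68, the immune marker analysed, was at 450.2 to 554 CPM against 95.7 to 104 CPM. Krt5, Thy1, Ptprc, Lyz2 and Cd3e were not analysed here. The part of these differences in the results below was not tested. In bulk libraries fewer cells of a type and less RNA per cell cannot be told apart.

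Myc (ENSMUSG00000022346, chromosome 15, 61985391 to 61990374, plus strand, mm10) encodes the best known activating partner of MAX. It was at 119, 105 and 110 CPM in LM1 and at 80.4, 78.2 and 82.5 CPM in LM1KO. In LM9 it was at 116 CPM in replicate 1, 367 in replicate 2 and 349 in replicate 3, and in LM9KO at 74.3, 75.1 and 78.5 CPM. All 6 libraries labelled knockout lay below all 6 parental ones, and LM9 replicates 2 and 3 stood well above every other library. The log2 fold change of Myc was -0.46 (SE 0.34) in LM1KO against LM1, short of the threshold (adjusted p = 0.229 by limma-voom). In LM9KO against LM9 Myc fell by 1.69 on the log2 scale (SE 0.34, adjusted p = 0.000649 by limma-voom). An exact two-sided permutation test gave p = 0.1 for each of these contrasts, the smallest that 3 libraries against 3 allow. Without LM9 replicate 1 the estimate in LM1 was nearly the same, -0.46, but its SE was 0.05 and it passed, while the value in LM9 moved to -2.23 (SE 0.05). Over 21 alternatives the limma, edgeR or DESeq2 adjusted p of Myc in the LM1 contrast ran from 3.75e-08 to 0.506, and its log2 fold change from -0.49 to -0.24.

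**Figure D1:**
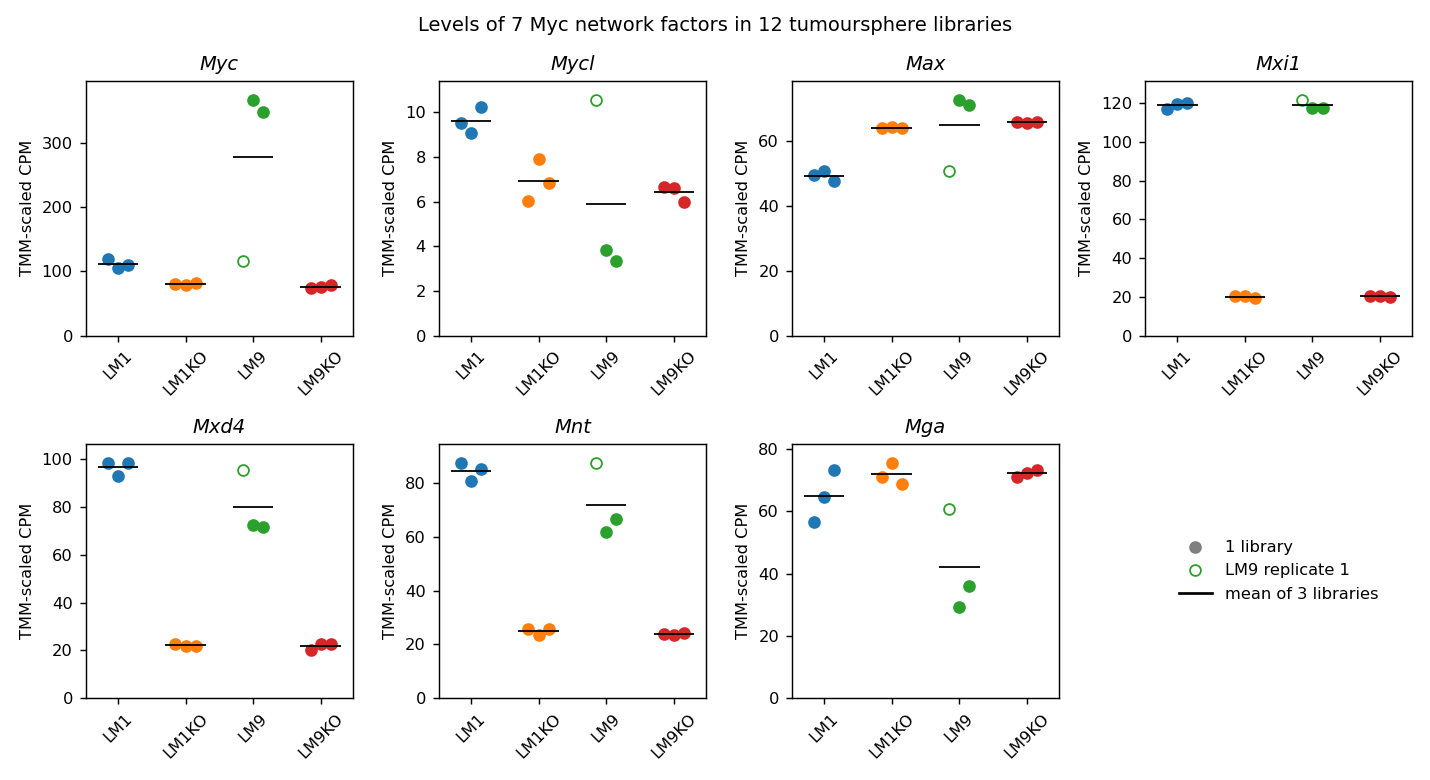
Each panel plots the TMM-scaled CPM (linear axis from 0) of 1 gene in the 12 libraries, with a point per library, a line at the mean of 3 libraries and an open circle for LM9 replicate 1. Mxi1, Mxd4 and Mnt lie between 19.3 and 25.7 CPM in the 6 libraries labelled knockout and between 62.0 and 122 CPM in the parental ones, and the open circle sits at the level of LM1 in every panel.

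Mycl (ENSMUSG00000028654, chromosome 4, 122995652 to 123002485, plus strand) was the scarcest member. Its levels were 9.50, 9.07 and 10.2 CPM in LM1, 6.02, 7.89 and 6.82 CPM in LM1KO, and 6.66, 6.59 and 6.0 CPM in LM9KO. In LM9 it was at 10.6 CPM in replicate 1 and at 3.83 and 3.35 CPM in the others, so that the 2 libraries with the highest Myc had the lowest Mycl. As fitted throughout with all libraries neither contrast passed, at -0.48 (SE 0.28, adjusted p = 0.129 by limma-voom) in LM1 and 0.28 (SE 0.32, adjusted p = 0.424 by limma-voom) in LM9. Over 21 alternatives the contrast passed in 3 for LM1 and in 2 for LM9, among them the fit that leaves out LM9 replicate 1. Without LM9 replicate 1 both passed, in opposite directions, at -0.48 (SE 0.09) in LM1 and 0.84 (SE 0.15) in LM9. The difference between the lines was -0.76 (SE 0.42) with all libraries and did not pass (adjusted p = 0.241 by limma-voom), and -1.32 (SE 0.18) without that library. Over 20 alternatives the adjusted p of that difference ran from 8.74e-06 to 0.526.

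Max (ENSMUSG00000059436, chromosome 12, 76937269 to 76962201, minus strand), the partner that all the others share, had group means between 49.3 and 65.8 CPM. It was at 49.5, 50.7 and 47.7 CPM in LM1 and at 64.1, 64.4 and 63.9 CPM in LM1KO, a rise of 0.38 on the log2 scale (SE 0.11, adjusted p = 0.00820 by limma-voom). In LM9 it was at 50.8, 72.7 and 71.0 CPM and in LM9KO at 66.0, 65.5 and 65.9 CPM. The knockout-labelled values fell inside the spread of LM9, with a log2 fold change of 0.04 (SE 0.11, adjusted p = 0.714 by limma-voom) that was -0.12 without LM9 replicate 1 and 0.39 with total counts in place of TMM factors, both past the threshold. With both changes together it was 0.29 and passed, so without that library the direction for Max in LM9 differed between the scalings.

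Mxi1, Mxd4 and Mnt, the 3 MAX partners that recruit SIN3, were several-fold lower in the libraries labelled knockout of both lines. Mxi1 (ENSMUSG00000025025, chromosome 19, 53310518 to 53375810, plus strand) was at 117, 119.6 and 120.2 CPM in LM1 and at 122, 118 and 118 CPM in LM9. Its levels were 20.6, 20.4 and 19.3 CPM in LM1KO and 20.6, 20.3 and 19.7 CPM in LM9KO. The groups were far apart, and Mxi1 was the 1 member at which LM9 replicates 2 and 3 sat beside LM1. Its means were 5.92-fold lower in LM1KO and 5.89-fold lower in LM9KO, with log2 fold changes of -2.56 in each line (SE 0.05 in both, adjusted p = 1.02e-11 in both by limma-voom). Without LM9 replicate 1 the values were -2.56 and -2.54.

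Mxd4 (ENSMUSG00000037235, chromosome 5, 34173883 to 34187720, minus strand) was at 98.7, 93.1 and 98.3 CPM in LM1 and at 95.7, 72.7 and 71.8 CPM in LM9. It was at 22.7, 22.0 and 22.1 CPM in LM1KO and at 20.0, 22.5 and 22.8 CPM in LM9KO. Mxd4 fell by 2.12 on the log2 scale in LM1 (SE 0.11, adjusted p = 5.44e-09 by limma-voom) and by 1.87 in LM9 (SE 0.11, adjusted p = 1.79e-08 by limma-voom), or by 1.73 (SE 0.05) without LM9 replicate 1. Mnt (ENSMUSG00000000282, chromosome 11, 74830920 to 74845725, plus strand), which is known as a broadly expressed MYC antagonist, was at 87.7, 80.7 and 85.3 CPM in LM1 and at 87.4, 62.0 and 66.7 CPM in LM9. It was at 25.7, 23.4 and 25.6 CPM in LM1KO and at 24.1, 23.7 and 24.4 CPM in LM9KO. Mnt fell by 1.76 (SE 0.11, adjusted p = 3.90e-08 by limma-voom) and by 1.57 (SE 0.11, adjusted p = 1.22e-07 by limma-voom) on the log2 scale, the latter being -1.42 (SE 0.06) without LM9 replicate 1. For both genes no library labelled knockout reached any parental library. The exons of Mxi1 and Mxd4 share 194 and 514 bases with a gene on the opposite strand (Gm10197 and Gm42846). Whether the counting used strand was not stated, so reads of these neighbours could be included.

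Mga (ENSMUSG00000033943, chromosome 2, 119897228 to 119969581, plus strand) was, in LM9KO, higher and not lower like the 3 SIN3-recruiting partners. It was at 56.7, 64.5 and 73.3 CPM in LM1 and at 71.1, 75.6 and 68.8 CPM in LM1KO, which overlapped, with a log2 fold change of 0.16 (SE 0.19, adjusted p = 0.462 by limma-voom). In LM9 it was at 60.6, 29.3 and 36.2 CPM, against 70.9, 72.3 and 73.3 CPM in LM9KO. There Mga rose by 0.84 on the log2 scale (SE 0.20, adjusted p = 0.00205 by limma-voom), or by 1.15 (SE 0.10) without LM9 replicate 1.

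Counted together, 4 of 7 members passed in LM1KO against LM1, with Max higher and Mxi1, Mxd4 and Mnt lower, where 81.2% of the 18176 genes tested passed (43.1% higher, 38.1% lower). In LM9KO against LM9 5 of 7 passed, with Mga higher and Myc, Mxi1, Mxd4 and Mnt lower, where 82.3% of all genes passed (44.3% higher, 38.0% lower). In the mean of both lines 6 of 7 passed, Max and Mga higher and the other 4 lower, with Mycl at -0.10 (SE 0.21) the exception, and the share of all genes was 86.8% (46.3% higher, 40.5% lower). With all libraries the share of members that passed was below that background in all 3 contrasts. This was not tested on the 7 genes, and without LM9 replicate 1 it held only in the mean. The median log2 fold change of the 7 members was -0.48 in LM1, -1.57 in LM9 and -1.08 in the mean, beside 0.08, 0.13 and 0.11 over all genes tested. With total counts in place of TMM factors the all-gene medians were 0.31, 0.49 and 0.40. Leaving out LM9 replicate 1, 7, 7 and 6 members passed, and of all genes 88.6%, 88.9% and 91.9%.

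**Figure D2:**
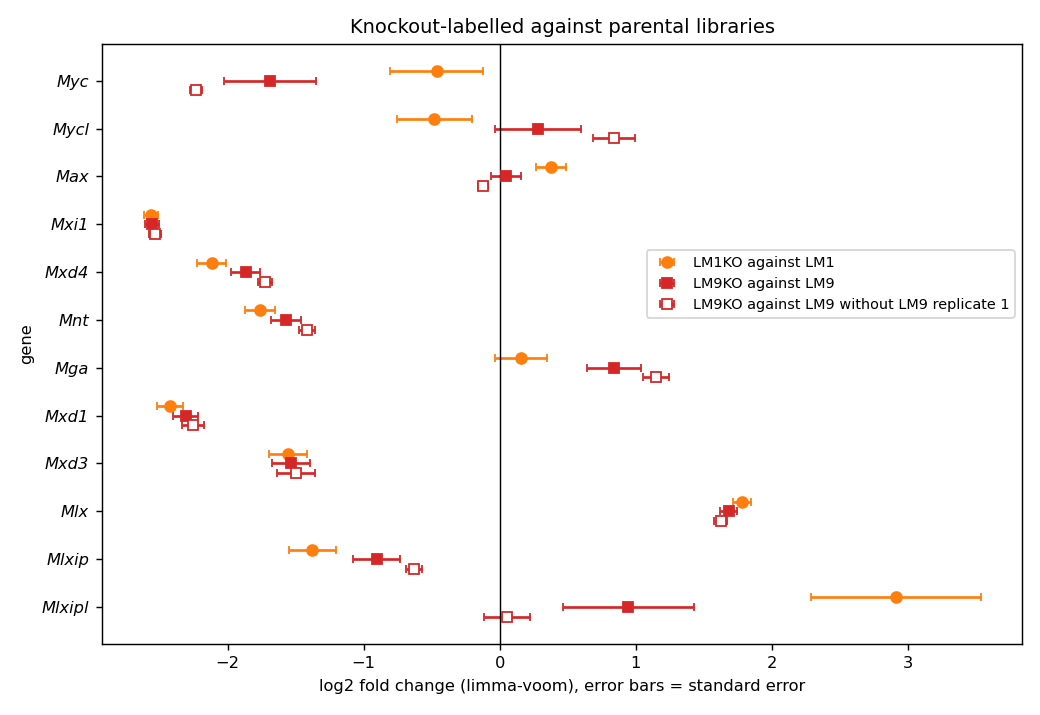
The log2 fold change (horizontal axis, limma-voom, error bars of 1 SE) of the 7 members and the 5 other network genes is drawn for LM1KO against LM1 (circles), LM9KO against LM9 (filled squares) and the latter without LM9 replicate 1 (open squares). With all libraries the error bars of both lines overlap for Mxi1, Mnt, Mxd1, Mxd3 and Mlx. They do not for the rest, among them Myc and Mycl, which lies at -0.48 in LM1 and 0.28 in LM9.

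No member's level was shown to differ between LM1KO and LM9KO. None of the 7 passed in LM1KO against LM9KO by limma-voom, edgeR or DESeq2, none had an unadjusted p-value under 0.05, and 0% of all genes passed, with or without LM9 replicate 1. The log2 differences ran from -0.04 (SE 0.11) for Max to 0.10 (SE 0.28) for Mycl. Max was at 64.1 ± 0.268 CPM in LM1KO and 65.8 ± 0.233 CPM in LM9KO (SD, n = 3).

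Between the parental lines the number of members that passed depended on LM9 replicate 1 and on the method. With all libraries none of the 7 passed by limma-voom as fitted throughout or by edgeR, whereas 3 did by DESeq2 (33.1% of all genes), and by limma-voom 4 with a mean of at least 5 CPM (39.4%), 5 with total counts (28.8%) and 6 with sample quality weights (63.8%). By edgeR 0.0055% of all genes passed. In the first fit 6 had an unadjusted p-value under 0.05, and of all genes 0.0055% passed, a single gene. Myc, Max and Mga were nearest to the threshold (adjusted p = 0.0543 each by limma-voom). Without LM9 replicate 1, 6 of 7 members passed, as did 65.7% of all genes (33.4% higher and 32.4% lower in LM1). Myc was then at 358 ± 13.0 CPM in LM9 (SD, n = 2) against 111 ± 7.08 CPM in LM1 (SD, n = 3), 3.22-fold higher, with a log2 difference LM1 minus LM9 of -1.69 (SE 0.05). Max was 1.46-fold higher in LM9, at -0.54 (SE 0.04). Mycl was 2.68-fold higher in LM1 (1.41, SE 0.15), Mga 1.98-fold (0.98, SE 0.10), Mxd4 1.34-fold (0.42, SE 0.05) and Mnt 1.31-fold (0.39, SE 0.05). Mxi1 differed by 0.02 (SE 0.04) and did not pass with TMM factors. With total counts in place of TMM factors the 6 kept their directions, and Mxi1 was 0.22 higher in LM1 and passed, as did 65.5% of all genes. Over 21 alternatives the adjusted p of Myc in this comparison ran from 1.65e-14 to 0.211.

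A test of the difference between the KO contrasts of the lines gave a similar split. With all libraries none of 7 passed by limma-voom, edgeR or DESeq2, and 2 had an unadjusted p-value under 0.05. Of all genes 0% passed by limma-voom, 0.0055% by edgeR and 0.386% by DESeq2, whereas limma-voom with sample quality weights on the same libraries gave 6 members and 58.1% of all genes. The difference of Myc, the LM1 contrast minus the LM9 contrast, was 1.23 (SE 0.48, adjusted p = 0.202 by limma-voom). Without LM9 replicate 1 it was 1.77 (SE 0.06), and 6 of 7 members passed, Mxi1 being the exception, as did 57.2% of all genes. With total counts in place of TMM factors as well, Mxi1 passed too, at -0.22, as did 57.3% of all genes. Over 20 alternatives the adjusted p of Myc in this test ran from 2.10e-12 to 0.422. This test shares its parental libraries with LM1 against LM9.

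Comparing levels between genes requires a level per length, for which CPM were divided by the kilobases of each gene's exon union. Per kb of exon union Myc was the most abundant of the 7 members in every group, at 40.9 ± 2.61 CPM per kb in LM1, 29.6 ± 0.792 in LM1KO, 102 ± 51.4 in LM9 and 28.0 ± 0.825 in LM9KO (SD, n = 3). Mycl was the least abundant in every group, with means between 1.46 and 2.38 CPM per kb, and Myc made up 94.5%, 94.5%, 97.6% and 94.6% of the summed level of Myc and Mycl. In LM1 the order below Myc was Mnt at 18.3 ± 0.771, Mxi1 at 17.4 ± 0.225 and Max at 13.7 ± 0.412 CPM per kb, followed by Mxd4 at 11.4 ± 0.370, Mga at 4.23 ± 0.540 and Mycl. Mnt and Mxi1 overlapped there, and the other neighbours did not. In LM1KO Max was second at 17.8 ± 0.0745, followed by Mnt at 5.38 ± 0.276, Mga at 4.68 ± 0.227, Mxi1 at 2.95 ± 0.103 and Mxd4 at 2.63 ± 0.0468 CPM per kb. The order was the same in LM9KO. In LM9 Max at 18.0 ± 3.39, Mxi1 at 17.4 ± 0.348 and Mnt at 15.6 ± 2.92 overlapped, above Mxd4 at 9.44 ± 1.6 and Mga at 2.74 ± 1.07 CPM per kb. The order depended on the length used. Per kb of the longest transcript Max at 33.9 ± 0.120 lay above Myc at 32.5 ± 0.958 in LM9KO, Mxd4 lay above Mxi1 in LM1KO and LM9KO, and in LM1 Max came second and Mnt fell to the fifth place, while Mycl was still the least abundant in every group.

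The ratio of the activating members (Myc and Mycl) to the other MAX partners (Mxi1, Mxd4, Mnt and Mga), per kb, was higher in the libraries labelled knockout than in LM1, although Myc itself was lower. It was 0.895, 0.814 and 0.818 in LM1 and 1.96, 1.97 and 2.08 in LM1KO. In LM9 it was 0.874 in replicate 1 and 3.31 and 3.04 in replicates 2 and 3, and in LM9KO 1.91, 1.89 and 1.95. LM9KO thus lay above LM9 replicate 1 and below the other LM9 libraries, so no direction holds for LM9 as a group. Max made up a larger part relative to its 6 partners in the libraries labelled knockout. The ratio of Max to their sum was 0.145 ± 0.00858 in LM1 and 0.125 ± 0.0175 in LM9, and 0.380 ± 0.00639 in LM1KO and 0.407 ± 0.00849 in LM9KO (SD, n = 3). With the longest transcript as length the values were 0.216, 0.190, 0.593 and 0.634 in the same order, over 1.5 times higher in LM9, LM1KO and LM9KO. These ratios are a description of mRNA levels and were not tested.

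**Figure D3:**
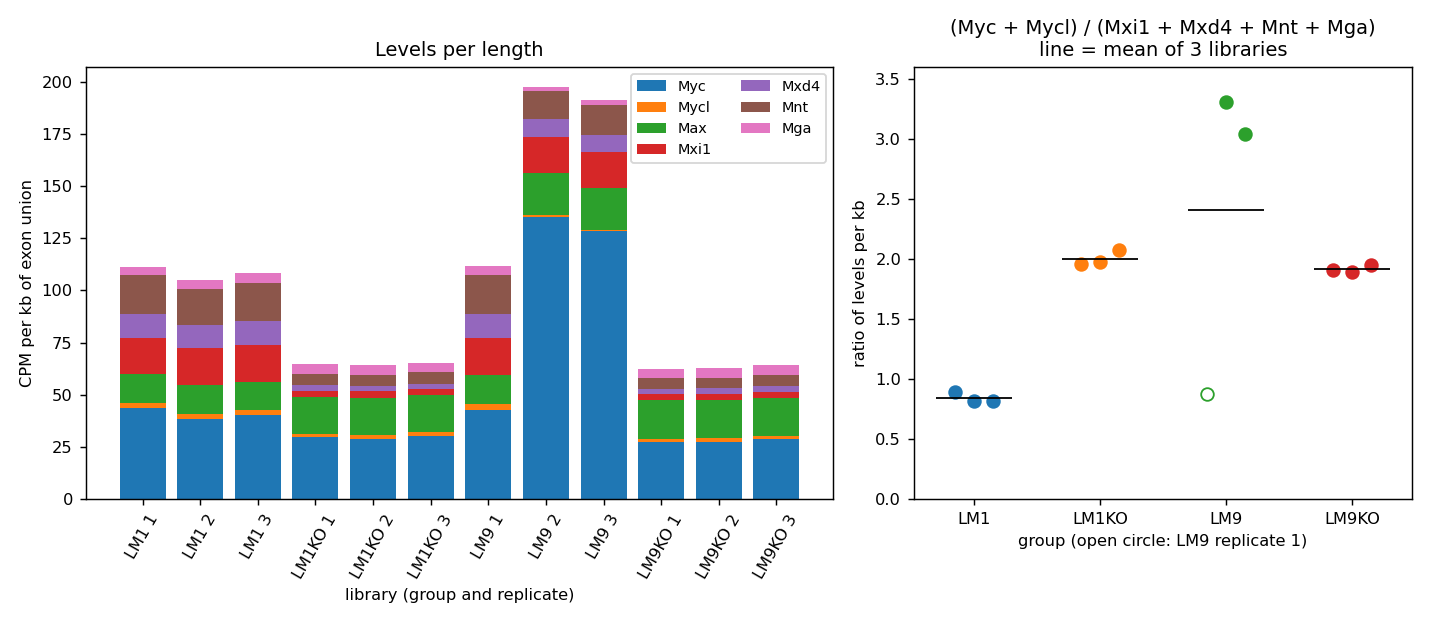
The left panel stacks the levels of the 7 members in CPM per kb of exon union for each library, and the right panel plots the ratio of Myc plus Mycl to Mxi1, Mxd4, Mnt and Mga, with a point per library and lines at group means. Myc fills most of the bars of LM9 replicates 2 and 3, at 135 and 128 CPM per kb, and the ratio is near 0.8 to 0.9 in LM1 and LM9 replicate 1.

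Of the 5 other genes of the network, 2 rose and 3 fell in the mean of both lines, beside 46.3% and 40.5% of all genes. Mxd1 and Mxd3, which encode further SIN3-recruiting MAX partners, were lower in the libraries labelled knockout, Mxd1 at 30.3, 31.9 and 29.6 CPM in LM1 against 5.89, 6.17 and 5.07 CPM in LM1KO. Mxd1 fell by 2.43 on the log2 scale in LM1 (SE 0.09) and by 2.31 in LM9 (SE 0.09). Mxd3 fell by 1.56 (SE 0.14) and by 1.54 (SE 0.14). All of these passed (limma-voom, largest adjusted p = 1.12e-06 for Mxd3 in LM9). With Mxi1 and Mxd4, the 4 MXD genes measured were thus lower in both lines, and their log2 fold changes ran from -2.56 to -1.54. Mlx, the MAX-like partner, was higher, at 32.2, 31.7 and 31.4 CPM in LM1 against 109, 110.1 and 108 CPM in LM1KO, and at 31.4, 37.4 and 34.0 CPM in LM9 against 114, 108 and 107 CPM in LM9KO. It rose by 1.78 (SE 0.07, adjusted p = 4.17e-10 by limma-voom) and by 1.68 (SE 0.07, adjusted p = 6.83e-10 by limma-voom) on the log2 scale. Mlxip fell by 1.38 in LM1 (SE 0.17) and by 0.90 in LM9 (SE 0.17), and its LM9 value was -0.63 without replicate 1. Mlxipl was scarce, at 0.284 to 0.542 CPM in LM1, 3.22 to 3.25 in LM1KO and 2.80 to 3.47 in LM9KO, and at 0.506, 3.46 and 2.52 CPM in the LM9 libraries. It rose by 2.91 in LM1 (SE 0.62, adjusted p = 0.00108 by limma-voom), and in LM9 its value of 0.95 (SE 0.48, adjusted p = 0.0875 by limma-voom) was 0.05 without replicate 1. Mxd3, Mlx, Mlxip and Mlxipl each share exon bases with an opposite-strand gene.

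Txnip, the classic target of MLXIP and MLX and an inhibitor of thioredoxin and glucose uptake, was lower in every library labelled knockout than in any parental one. It was at 5355, 5610 and 5388 CPM in LM1 and at 34.6, 33.0 and 32.4 CPM in LM1KO, and at 5454, 5143 and 5203 CPM in LM9 and 35.4, 34.3 and 31.1 CPM in LM9KO. The means were 163-fold and 157-fold lower. In the mean of both lines Txnip fell by 7.32 on the log2 scale (SE 0.04, adjusted p = 4.31e-16 by limma-voom). The other listed target, Arrdc4, fell by 2.83 (SE 0.27). Its level was 112 ± 0.911 CPM in LM1 and 22.7 ± 0.479 CPM in LM1KO (SD, n = 3), and 109.8, 358 and 339 CPM in LM9 against 21.7, 22.7 and 24.1 CPM in LM9KO. It was named after its value was seen.

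Genes known to be induced by MYC in growth were mostly higher in the libraries labelled knockout. Of 58 genes on that list, 47 rose and 9 fell in the mean of both lines, where 46.3% of all genes rose and 40.5% fell. The list's median was 1.31 beside 0.11 over all genes tested. The numbers were 47 and 7 in LM1 (43.1% and 38.1% of all genes), and 44 and 10 in LM9 (44.3% and 38.0%). Without LM9 replicate 1 they were 47 and 10 in the mean, and 44 and 13 in LM9. In that setting 91.9% and 88.9% of all genes passed in either direction. Rrp12, a ribosome assembly factor, rose most, from 1.77, 1.69 and 1.77 CPM in LM1 to 93.4, 89.4 and 90.7 CPM in LM1KO, and from 2.02, 2.26 and 2.79 CPM in LM9 to 88.9, 90.8 and 93.3 CPM in LM9KO. Its log2 fold change was 5.49 (SE 0.08, adjusted p = 2.18e-13 by limma-voom). Npm1, the nucleolar histone chaperone nucleophosmin, fell most, by 1.35 (SE 0.08, adjusted p = 7.90e-09 by limma-voom), from 697 ± 40.0 to 294 ± 6.05 CPM in LM1 and from 857 ± 152 to 308 ± 5.39 CPM in LM9 (SD, n = 3). Some well known members, named after their values were seen, were the ribosome assembly factors Utp20 (4.54, SE 0.06) and Bysl (3.84, SE 0.08), spermidine synthase Srm (2.89, SE 0.11), ornithine decarboxylase Odc1 (1.55, SE 0.18) and the cell cycle kinase Cdk4 (1.19, SE 0.04), all of which rose. Among those that fell were hexokinase Hk2 (-1.22, SE 0.21, and -0.97 without LM9 replicate 1) and the mitotic kinase Plk1 (-1.01, SE 0.04).

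The E-box was also counted in the windows of the growth genes. Of 52 with a window 14 held it (26.9%), beside 11.6% of the genes with counts and a window. Of those 14 genes 14 rose and none fell, and their median log2 fold change was 1.62. Among all tested genes with the motif 53.8% rose and 36.6% fell, with a median of 0.41. Of the 38 growth genes without the motif 28 rose and 8 fell, with a median of 1.31, beside 48.6% and 39.8% and a median of 0.17 over all tested genes without it. None of the 6 MYC-repressed genes with a window held it. No test was run on these counts.

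Between the parental lines the growth genes were mostly lower in LM1, as Myc was, once LM9 replicate 1 was left out. In LM1 against LM9, 43 of 58 were then lower in LM1 and 6 higher, where 32.4% of all genes were lower and 33.4% higher, and the median was -0.45 beside -0.02 over all genes. With total counts in that same comparison the numbers were 34 lower and 9 higher, where 22.6% of all genes were lower and 42.9% higher. With all 12 libraries none of the growth genes passed by limma-voom as fitted throughout or by edgeR, with which 0% of all genes were lower and 0.0055% higher. Total counts gave 13 lower and 2 higher, where 6.95% of all genes were lower and 21.8% higher. A mean of at least 5 CPM gave 23 and 1 (17.6% and 21.9% of all genes), sample quality weights 42 and 6 (31.2% and 32.5%) and DESeq2 31 and 0 (20.9% and 12.2%).

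**Figure D4:**
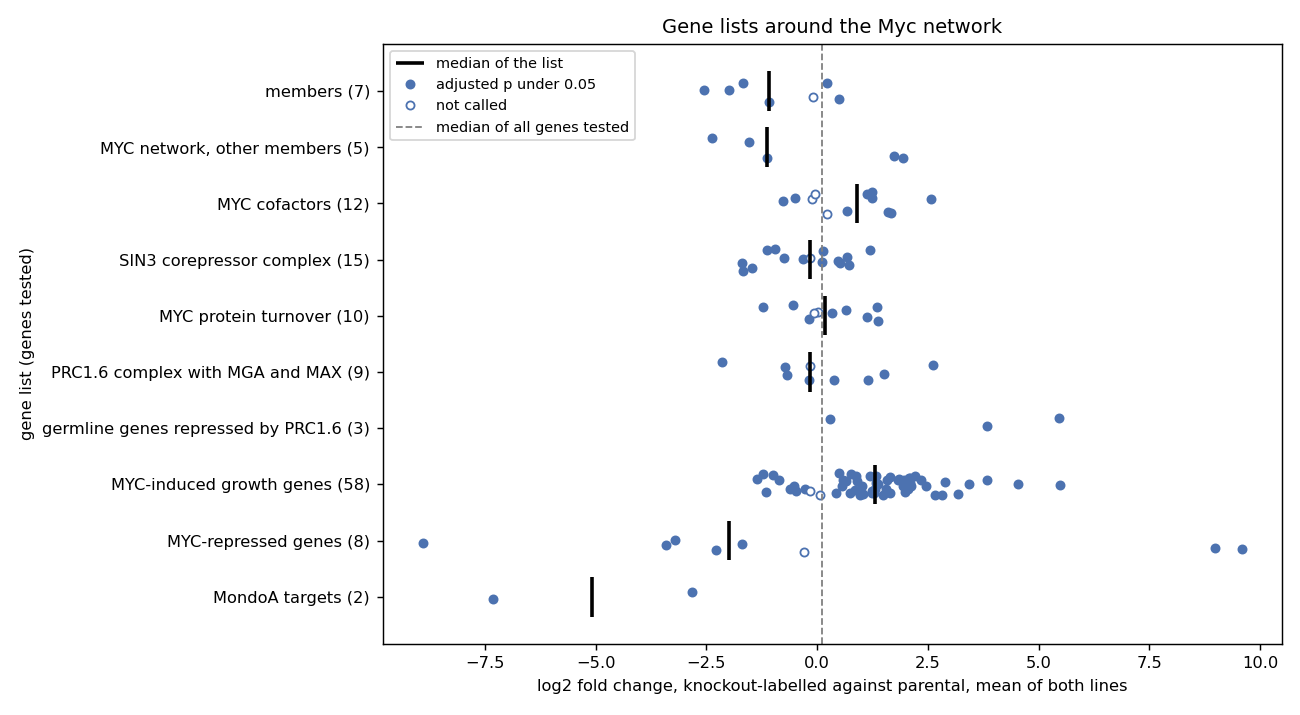
Each point is the log2 fold change of 1 gene in the libraries labelled knockout against parental, mean of both lines (horizontal axis), filled where it passed at an adjusted p under 0.05, with a bar at the median of each list (none for the germline list) and a dashed line at the all-gene median of 0.11. The growth genes lie mostly to the right of that line, with a median of 1.31, and the values of Cdkn2b, Gas1, Ndrg2, Taf7l and Meioc are fitted against groups near 0 counts and give no size.

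Of 8 genes known to be repressed by MYC, Cdkn2b, Gas1 and Ndrg2 passed the filter on low counts through the libraries of 1 label alone. That fixed their direction, so no count over the list is given. Of the others, Cdkn1b, Thbs1, Gadd45a and Ndrg1 were lower in the libraries labelled knockout (mean of both lines), where 40.5% of all genes fell. Cdkn1b, the cell cycle inhibitor p27, fell from 246 to 20.5 CPM in LM1 and from 199 to 20.9 CPM in LM9, and Thbs1, the matrix protein thrombospondin, from 1032 to 101 CPM and from 869 to 102 CPM. Cdkn1b, Thbs1, Gadd45a and Ndrg1 were named after their values were seen. Ndrg2 fell most. It was at 8.54, 8.92 and 8.49 CPM in LM1 and at 9.38, 15.5 and 14.7 CPM in LM9, and had 0 or 1 counts in each library labelled knockout. Cdkn2b, the cell cycle inhibitor p15, and Gas1 (named after its values were seen) went the other way. Cdkn2b had 0 or 1 counts in LM1 and 17.6, 16.5 and 18.4 CPM in LM1KO, and it had 0 counts in LM9 and 15.1, 15.9 and 15.4 CPM in LM9KO, at least 136-fold higher against a floor of 3 counts per library. Gas1 had 0 or 1 counts in each parental library and 13.8 to 17.0 CPM in the libraries labelled knockout. Cdkn1a, the inhibitor p21, was at -0.29 (SE 0.16) and did not pass (adjusted p = 0.110 by limma-voom). Its means went opposite ways, from 74.1 CPM in LM1 to 80.2 CPM in LM1KO and from 130 CPM in LM9 to 76.3 CPM in LM9KO. Without LM9 replicate 1 its mean of both lines was at -0.46 and passed.

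The genes through which the members act were counted in the mean of both lines, where 46.3% of all genes rose and 40.5% fell, with a median of 0.11. Of 15 SIN3 complex genes 7 rose and 7 fell, near those shares, with a median of -0.15 that was 0.08 without LM9 replicate 1. The scaffold Sin3a fell by 1.47 (SE 0.04), and Ing1, a histone-reading subunit, fell by 1.70 (SE 0.06, adjusted p = 2.17e-10 by limma-voom), from 85.1 to 24.1 CPM in LM1. Brms1 rose most, by 1.20 (SE 0.05, adjusted p = 8.41e-10 by limma-voom), from 14.9 to 36.9 CPM in LM1. Of 12 MYC cofactors 7 rose and 2 fell, beside the same 46.3% and 40.5%, with a median of 0.90. Smarcb1, a SWI/SNF subunit, rose most, by 2.57 (SE 0.11, adjusted p = 7.89e-10 by limma-voom), from 25.0 to 125 CPM in LM1 and, from 25.6, 13.8 and 14.4 CPM in LM9, to 122 CPM in LM9KO. Zbtb17 (MIZ1), the partner with which MYC represses, fell most, by 0.76 (SE 0.09, adjusted p = 5.08e-06 by limma-voom). Trrap, Ruvbl2 and Wdr5 did not pass, and without LM9 replicate 1 Trrap and Ruvbl2 did.

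Of 10 genes for the turnover of the MYC protein 5 rose and 3 fell, near the all-gene shares of 46.3% and 40.5%, with a median of 0.19. Usp36, a nucleolar deubiquitinase, rose by 1.36 (SE 0.06, adjusted p = 1.12e-09 by limma-voom). Aurka, a kinase known to stabilise MYCN, fell most, by 1.22 (SE 0.10, adjusted p = 3.66e-07 by limma-voom), from 148 ± 1.34 to 74.6 ± 2.25 CPM in LM1 and, from 154, 247 and 246 CPM in LM9, to 76.7 ± 2.41 CPM in LM9KO (SD, n = 3). Fbxw7, the ubiquitin ligase subunit that recognises phosphorylated MYC, rose by 1.35 (SE 0.19), or by 1.65 without LM9 replicate 1, where Usp36 was at 1.31. Fbxw7 went from 14.5 to 24.8 CPM in LM1. In LM9 its libraries had 14.1, 4.92 and 4.17 CPM, against 26.1 ± 0.207 CPM in LM9KO (SD, n = 3). It was named after its value was seen.

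The PRC1.6 complex, in which MGA and MAX sit, had 4 of 9 listed genes higher and 4 lower, near the all-gene shares of 46.3% and 40.5%. L3mbtl2 rose most, by 2.63 (SE 0.05, adjusted p = 6.58e-13 by limma-voom), from 24.2, 24.2 and 24.7 CPM in LM1 to 139, 138 and 136 CPM in LM1KO, and from 22.2, 19.1 and 19.0 CPM in LM9 to 141, 133 and 134 CPM in LM9KO. Rnf2, the RING1B ubiquitin ligase, fell most, by 2.14 (SE 0.08, adjusted p = 1.65e-10 by limma-voom), from 101, 113 and 103 CPM in LM1 to 25.4, 24.9 and 21.3 CPM in LM1KO. The complex's defining subunit Pcgf6 rose by 1.51 (SE 0.10), and was named after its value was seen. Of 14 germline genes that the complex is known to repress, 3 were analysed. Taf7l and Meioc passed the filter on low counts through the libraries labelled knockout alone, which fixed their direction, so no count of risen genes is given. Zcwpw1 was the only one above a mean of 1 CPM, at 2.38 to 3.03 CPM in LM1 and 3.25 to 3.81 in LM1KO, and at 2.28 to 2.73 CPM in LM9 and 2.72 to 3.17 in LM9KO, which overlapped (mean of both lines 0.30, SE 0.10, adjusted p = 0.0132 by limma-voom). In LM9 alone Zcwpw1 did not pass (0.25, SE 0.14, adjusted p = 0.124 by limma-voom). Taf7l had 0 counts in all parental libraries and was at least 6.19-fold higher in LM1KO and at least 8.62-fold higher in LM9KO against a floor of 3 counts per library, at group means under 1 CPM. Meioc, at 0 or 1 counts in each parental library, was at 0.130 to 0.478 CPM in the libraries labelled knockout. The other 11 genes were not analysed here.

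For each member the gene with the most similar pattern was found by the root mean square difference of log2 CPM, centred on each gene's mean over the 12 libraries, among 14632 genes. It was Epha2 for Myc (0.0462), Cdc42ep3 for Mycl (0.117), Tcp1 for Max (0.0301), Jak2 for Mxi1 (0.0457), Hs6st1 for Mxd4 (0.0554), Fam83d for Mnt (0.0452) and Cbl for Mga (0.0474). Epha2, a receptor tyrosine kinase, was like Myc highest in LM9 replicates 2 and 3, at 553 and 562 CPM against 168 in LM9 replicate 1 and 154 to 179 CPM in LM1. Jak2, a cytokine receptor kinase, was at 168 to 186 CPM in LM1, 181 to 188 in LM9 and 28.4 to 32.3 CPM in the libraries labelled knockout. The 12 libraries share 4 group levels, so a small difference means only that those levels and LM9 replicate 1 are alike.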

How the data were processed

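RNA was measured with stranded poly-A libraries (single-end reads), which the authors aligned with STAR to mm10. They counted read 5′ ends over the union of each gene's exons with qCount of QuasR, and the deposited values were raw whole-number counts per gene, 1 file per library. Versions and the annotation were not given in the sources used here. Each file listed 18278 genes, of which 18268 were matched by Ensembl identifier to GENCODE M21 (GRCm38), and the third-highest count of every gene was at least 8. Promoter windows came from RefSeq (GRCm38.p6).

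The main test was limma-voom, the framework of the study's methods (R 4.3.3, limma 3.58.1, edgeR 4.0.16): filterByExpr with a count minimum of 10 and a total minimum of 15, TMM factors, an offset of 0.5, 1 mean per group over all 12 libraries, two-sided tests and Benjamini-Hochberg adjustment over the 18176 genes tested in each of 6 contrasts, with a threshold of 0.05. Exact permutation tests used log2(CPM + 0.5). Floors of 3 counts cover counting error only, because PCR copies were not told apart. The code was tested on simulated data.

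Alternatives were edgeR quasi-likelihood, DESeq2 1.42.0, median-ratio factors, total counts, a minimum mean of 5 CPM or no filter, sample quality weights, a replicate block, the groups compared alone, and each library left out. Total counts without LM9 replicate 1 were added after seeing the data. Named genes were the members, the 5 other network genes, Nfib, the largest rise and fall in each list among called genes with a mean of at least 1 CPM, and each member's nearest pattern. All other genes named were chosen after their values were seen. The members and lists were chosen with earlier results of these data known.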

Additional observations from a re-analysis of the deposited data

How the results depend on the processing

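Leaving out each library in turn, the number of members past the threshold ran from 4 to 7 in LM1KO against LM1, from 5 to 7 in LM9KO against LM9, from 5 to 6 in their mean, and from 0 to 6 both in the difference between lines and in LM1 against LM9, each highest value of 6 or 7 coming without LM9 replicate 1 (in the mean 6 was also the count with all libraries, and the 5 came without LM1 replicate 3). LM1KO against LM9KO stayed at 0. With sample quality weights 6 members passed in the difference between lines and 6 in LM1 against LM9, where DESeq2 gave 3, total counts 5 and a mean of at least 5 CPM 4. Reversed values were those of Mycl in LM9 (-0.0279 to 0.84 over the libraries left out, lowest without LM9 replicate 3) and in the mean (0.20 with total counts, 0.14 with quality weights, and, leaving out 1 library, -0.25 to 0.18), of Max in LM9 (-0.12 with quality weights and -0.12 without LM9 replicate 1), of Tcp1 in LM9 (-0.12 and -0.11 under the same settings) and of Cdc42ep3 in the mean (0.22 with total counts, 0.12 with quality weights and, leaving out 1 library, -0.17 to 0.13, highest for both without LM9 replicate 1). The cause was not tested. Mxi1, Mxd4, Mnt, Mxd1, Mxd3 and Mlx kept direction and call in both lines under every alternative. With the longest transcript as length, the ratio of Myc and Mycl to the 4 other partners was 0.743 in LM1, 1.88 in LM1KO and 1.79 in LM9KO, and that of Max to its partners 0.216, 0.593, 0.190 and 0.634 in LM1, LM1KO, LM9 and LM9KO. Leaving out 1 library of a group, the first ratio ran from 0.816 to 0.857 in LM1, 1.96 to 2.02 in LM1KO, 1.96 to 3.17 in LM9 and 1.90 to 1.93 in LM9KO, the second from 0.140 to 0.148, 0.377 to 0.383, 0.115 to 0.130 and 0.403 to 0.411, and the share of Myc from 94.3 to 94.7%, 94.2 to 95.0%, 96.8 to 99.3% and 94.4 to 94.8%. With the replicate block 4, 5, 6, 0, 0 and 0 members passed in the 6 contrasts, as without it, and it changed the call of 1 other gene, Zcwpw1 in LM1. Deviations of equally numbered libraries correlated at -0.16 to 0.09 over 12 pairs. With 3 libraries per group this cannot tell whether equally numbered libraries were handled together. A fit of the groups compared alone could not be made for the mean of both lines and the difference, which use all groups. Mycl and Mlxipl, with 85 to 313 and 8 to 134 counts per library, are the members and network genes that depth limits most.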
